A study of Mus musculus with 10 samples.

Results

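Rubbing of the back skin with olive oil/acetone was compared with rubbing with water in mice lacking gasdermin A genes, in 5 of the 10 libraries of the study. The members were chosen by their labels alone: all 3 libraries labelled mutant and olive oil/acetone, and both libraries labelled mutant and water. The comparison and the gene lists below were chosen with earlier results of these data known. The mice carried the genotype Gsdma1KO/KO;Gsdma3fx/fx;K14-Cre in both groups, that is a knockout allele of Gsdma1 and a floxed Gsdma3 with a Cre recombinase driven by the keratin 14 promoter, which is active in basal keratinocytes of the epidermis and hair follicle and not in the immune, vascular or dermal cells of the skin. The skin was rubbed with acetone and olive oil in a ratio of 4 to 1, or with water, on 3 days at 2 rubs per day, and keratinocytes were taken on day 5 from epidermis that dispase had freed from the dermis and trypsin had dispersed. The other 5 libraries came from wild-type mice under the same treatments (3 oil/acetone, 2 water) and enter here only through the shared estimate of spread and 1 closing comparison. The labels give no strain, age or sex, and do not state whether replicates are separate animals. The p-values therefore describe only library-to-library spread, and this may be technical.

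The epidermis renews itself from a basal layer of dividing keratinocytes that rests on a basement membrane. Cells that leave this layer stop dividing, build tight junctions in the granular layer and end as flat corneocytes, whose proteins are crosslinked into a cornified envelope. Acetone draws lipids out of this barrier, and a disturbed barrier is known to be followed by basal cell division, by signals of the IL-1 and IL-36 families and by faster formation of new envelope. Gasdermins are proteins that form pores in membranes after cleavage, and the gasdermin A genes are expressed mainly in epidermis and hair follicle.

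Values are normalised read counts, given in the order of replicates 1, 2 and 3 for oil/acetone and 1 and 2 for water. The 5 libraries held 15914663 to 21812292 reads. Gsdma3, a target of the deletion, was at 0, 0.898 and 0 under oil/acetone and 2.65 and 0 under water, and at 62.5 to 283 in the wild-type libraries. Gsdma, the gene that the labels call Gsdma1, kept reads in the mutants, at 259.7, 843 and 385 under oil/acetone and 170.2 and 170.3 under water. Counts summed over a gene cannot reveal a lost exon, and reads of these close paralogs can be shared. Keratinocyte markers were high in all 5 libraries: Krt5, a basal keratin, ranged from 211026 to 396203 and Krt10, a suprabasal keratin, from 130776 to 259311. Transcripts of 4 Y-linked genes were present in all 3 oil/acetone libraries (Ddx3y at 1892, 1490.1 and 1431) and had 0 reads in both water libraries, so the treatment cannot be told apart from a difference in sex between the libraries. The comparison was limited to autosomes, which does not remove this confounding from the autosomal calls. Xist, an X-linked transcript that was also looked for, was not among the listed genes, so the check rests on Y-linked genes alone. On the first principal component of the tested genes (67% of the variance) the oil/acetone libraries lay at 15.5, 64.7 and 47.9 and the water libraries at -64.3 and -63.8. On the second (13.9%) oil/acetone replicate 1 stood apart, at 49.3 against -17.3 to -6.76 in the other 4.

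Of 15259 autosomal genes tested with limma, 2152 (14.1%) passed an adjusted p of 0.05. Of these 1076 (7.05%) rose under oil/acetone and 1076 (7.05%) fell, and these shares are the background for every list below. The rises were larger. Their median log2 change was 1.28, with 270 genes at 2 or more, while the falls had a median of -1.0 with 96 genes at -2 or below. In all 2152 the 2 groups did not overlap, which was also true of 4469 tested genes above (29.3%) and 4472 below (29.3%), called or not. Scaling the libraries to equal totals moved the median change of all genes from 0.01 to 0.14 and the split of the calls from 1076 rises and 1076 falls to 1334 and 843. The test rests on the water group, which had 2 libraries. Without water replicate 1 or 2 the limma fit called 2 and 24 genes, and without oil/acetone replicate 1, 2 or 3 it called 2811, 386 and 222. The control libraries enter through the shared spread, and without control oil/acetone replicate 2 the count was 820. Cxcl14 and Stfa3 alone were called in all 5, so every other call named below is lost in at least 1 of them. Of 67 gene lists 64 held a called gene with all libraries, 3 without water replicate 1 and 8 without water replicate 2.

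**Figure D1:**
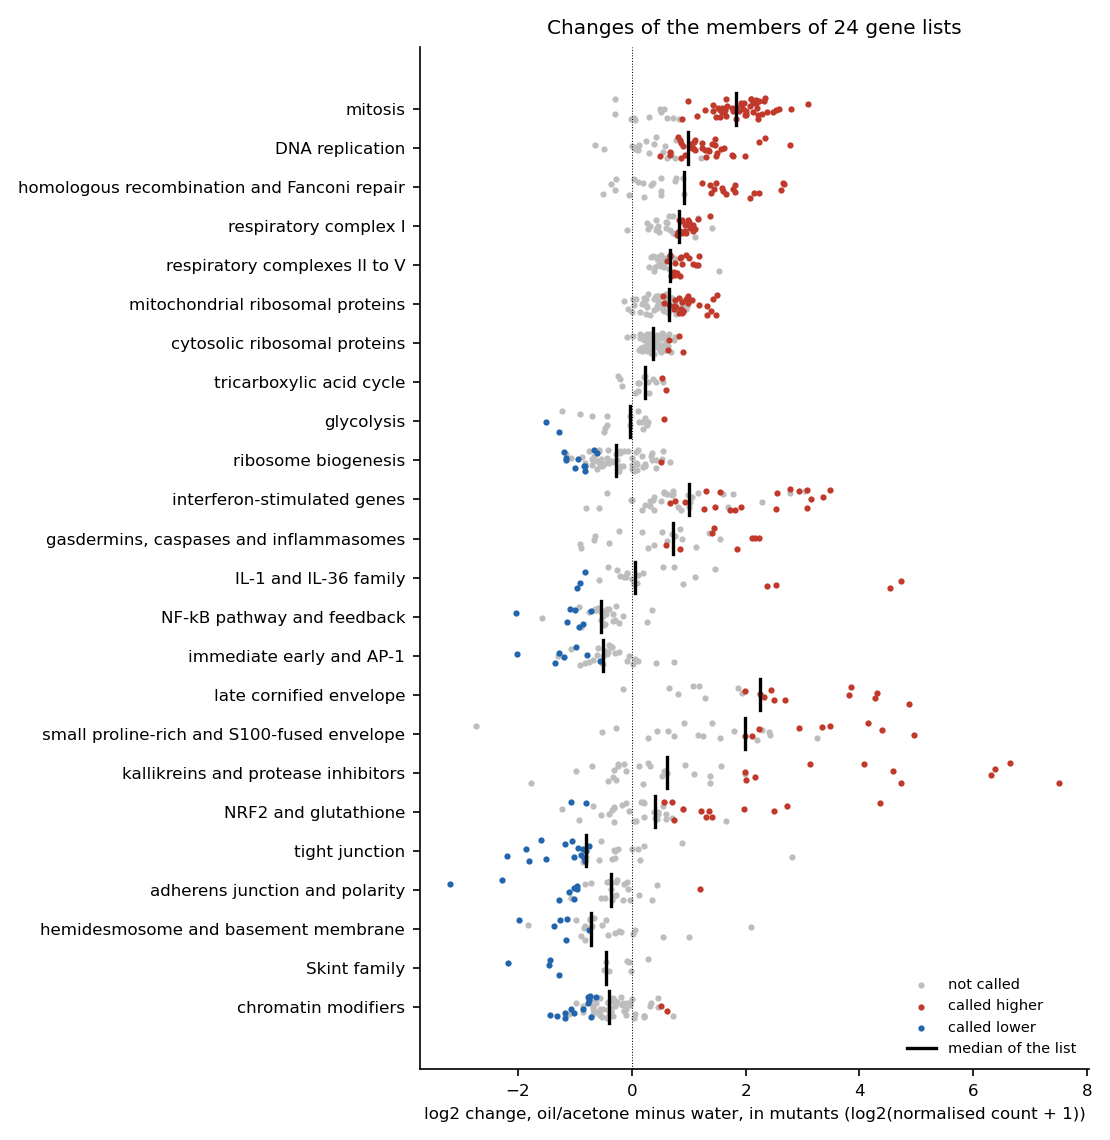
Log2 change under oil/acetone against water in mutants (x axis, log2 of normalised count + 1) for the members of 24 gene lists (y axis). Each point is 1 gene, red called higher, blue called lower and grey not called, and the black bar is the median of the list. The mitosis list has its median at 1.83 and the late cornified envelope list at 2.26, and the tight junction list has its median at -0.80 with no member called higher.

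Genes of cell division had the highest share of called members of all 67 lists. The lists were chosen with earlier results of these data known, so this rank is a description and not a test. Of 63 mitosis genes tested, 51 rose and 0 fell, with a median log2 change of 1.83 against 0.01 over all tested genes. Cdk1, the kinase that starts mitosis, was at 1049, 812 and 908 normalised counts under oil/acetone and 153 and 262 under water (log2 change 2.19 ± 0.31 SE, adjusted p = 0.00883). Its partner Ccnb2, cyclin B2, stood at 828, 754 and 758 against 123 and 157 (log2 change 2.48 ± 0.35 SE, adjusted p = 0.00883). Cdc20, which activates the ubiquitin ligase that ends metaphase, had 1942, 1419 and 1513 against 399 and 457 (log2 change 1.91 ± 0.25 SE, adjusted p = 0.00796). In each of these genes the lowest oil/acetone library lay 3.10-fold to 4.81-fold above the higher water library, and the 3 oil/acetone libraries lay within 1.37-fold of each other. Nuf2, a kinetochore protein, had 317, 305 and 332 against 82.9 and 94.9 (log2 change 1.83 ± 0.25 SE, adjusted p = 0.00796). The proliferation antigen Mki67 had 4362, 3430.2 and 5637 against 1281 and 1296 (log2 change 1.77 ± 0.29 SE, adjusted p = 0.0127). Foxm1, a transcription factor of mitotic genes, had 819.5, 593 and 853 against 225 and 242 (log2 change 1.67 ± 0.32 SE, adjusted p = 0.0168). Replicate 3 was the highest oil/acetone library for Mki67 and the groups were apart in all 3 genes. The count of 51 became 50, 29 and 13 without oil/acetone replicate 1, 2 and 3, and 0 and 1 without water replicate 1 and 2. The list's median was 1.83 also relative to protein-coding genes of like exon length.

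Promoters of the mitosis list were searched for TTTGAA, the core of the cell cycle homology region that the DREAM and MuvB complexes are known to bind, on both strands, in RefSeq windows of GRCm38.p6 from 250 bases before to 50 after the start. The letters were found for 38 of the 53 members with a matched promoter (71.7%), against 14.5% of the 10890 tested genes with a promoter and 20.2% of all 27025 genes in the table. The share was 73.8% among the members that rose and 63.6% among the 11 that were not called. The stretches before the start are printed for the 4 members with the lowest adjusted p that hold a match in these 160 bases, to show where it lies, and Kif15 and Ube2c were chosen for this reason after their values were seen. Capitals mark TTTGAA or its complement TTCAAA, all stretches are 5′ to 3′ on the strand of the gene, and each ends 1 base before the start. Cdc20 is at chr4:118437344-118437503 on the minus strand, Cdk1 at chr10:69352913-69353072 (minus), Kif15 at chr9:122950921-122951080 (plus) and Ube2c at chr2:164769769-164769928 (plus).
Cdc20: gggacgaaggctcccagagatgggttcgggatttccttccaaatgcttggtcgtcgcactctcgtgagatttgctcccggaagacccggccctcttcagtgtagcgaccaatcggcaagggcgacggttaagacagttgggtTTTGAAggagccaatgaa
Cdk1: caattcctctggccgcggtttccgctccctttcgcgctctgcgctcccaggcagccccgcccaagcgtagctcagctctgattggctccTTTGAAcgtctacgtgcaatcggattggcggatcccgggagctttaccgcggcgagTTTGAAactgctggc
Kif15: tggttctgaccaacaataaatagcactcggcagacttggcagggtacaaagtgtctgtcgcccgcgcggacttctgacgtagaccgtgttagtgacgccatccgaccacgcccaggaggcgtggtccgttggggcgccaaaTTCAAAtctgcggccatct
Ube2c: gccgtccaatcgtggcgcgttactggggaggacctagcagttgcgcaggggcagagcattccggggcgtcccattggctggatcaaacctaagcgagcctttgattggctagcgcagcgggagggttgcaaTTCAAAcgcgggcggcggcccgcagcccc
A match describes these letters and is not a measured binding site. In Cdc20, Cdk1, Kif15 and Ube2c 12, 9, 13 and 23 bases lie between the last match and the start.

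DNA replication genes rose with them, by less. Of 52 tested, 34 rose and 0 fell, with a median of 1.00 and 0.89 relative to genes of like length. Rrm2, the ribonucleotide reductase subunit that supplies deoxynucleotides, was at 819, 766 and 805 normalised counts under oil/acetone and 299.9 and 319.9 under water (log2 change 1.36 ± 0.15 SE, adjusted p = 0.00453). Mcm2, part of the replicative helicase, had 1043, 991 and 1159 against 329.9 and 440.4 (log2 change 1.48 ± 0.24 SE, adjusted p = 0.0127). Chaf1a, which places histones on new DNA, had 452, 409.6 and 431 against 148 and 207 (log2 change 1.29 ± 0.20 SE, adjusted p = 0.0114). All 3 genes had non-overlapping groups with little spread under oil/acetone. Pcna, the sliding clamp of the polymerases, did not follow them: it stood at 2508, 2432 and 2500.4 against 2082 and 2511, the groups overlapped and it was not called (adjusted p = 0.585). The 34 rises became 29, 17 and 5 without oil/acetone replicate 1, 2 and 3, and 0 and 1 without water replicate 1 and 2. Promoters of this list held an E2F site (TTTGGCGC, TTTCCCGC or TTTCGCGC, both strands) in 16 of 42 matched members (38.1%) against 3.74% of tested genes, in 33.3% of the members that rose and 44.4% of those not called. TTTGAA was in 8 of the 42. The stretches of Mcm5 (chr8:75109349-75109508, plus) and Rfc3 (chr5:151651209-151651368, minus), chosen as the called members with the lowest adjusted p that hold a match in these 160 bases, after their values were seen, show the E2F letters in capitals.
Mcm5: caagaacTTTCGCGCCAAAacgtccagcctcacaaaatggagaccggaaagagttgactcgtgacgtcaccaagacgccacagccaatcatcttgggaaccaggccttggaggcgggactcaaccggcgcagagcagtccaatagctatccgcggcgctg
Rfc3: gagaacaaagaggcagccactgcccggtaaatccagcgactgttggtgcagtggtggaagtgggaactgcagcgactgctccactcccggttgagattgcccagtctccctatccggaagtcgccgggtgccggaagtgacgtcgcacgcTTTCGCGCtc
In Mcm5 a match on each strand overlaps the other, so the capitals run over both. In Rfc3 2 bases lie between the match and the start, and in Mcm5 141.

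Genes of homologous recombination and of the Fanconi pathway, which repair broken and crosslinked DNA at replication forks, had 17 rises and 0 falls among 35 tested (median 0.92). Rad54l, a motor protein of strand exchange, was at 109.7, 130.2 and 142 normalised counts under oil/acetone and 20.3 and 19.5 under water (log2 change 2.61 ± 0.42 SE, adjusted p = 0.0127). Brca1 stood at 162, 186 and 242 against 72.3 and 56.0 (log2 change 1.59 ± 0.39 SE, adjusted p = 0.0311). In both genes replicate 3 was the highest oil/acetone library, and both water libraries lay below every oil/acetone library. The growth arrest list moved the other way in part: 6 of 30 fell and 1 rose (median -0.39). The retinoblastoma gene Rb1 had 1006, 810.2 and 874 against 1525 and 1465 (log2 change -0.74 ± 0.18 SE, adjusted p = 0.03). Trp53inp1, a p53 target, had 2689, 1696 and 1796 against 3998 and 4202 (log2 change -1.02 ± 0.20 SE, adjusted p = 0.0174). The member that rose was Cdkn2c, an inhibitor of CDK4 and CDK6, at 419, 525 and 514 against 216 and 229.9 (log2 change 1.11 ± 0.28 SE, adjusted p = 0.0331). Cdkn1a, the p21 inhibitor, was at 7973, 9374 and 6214 against 11449 and 12503, without overlap, and was not called (adjusted p = 0.0542). Cdkn1b overlapped, at 2989, 2454 and 2657 against 2867 and 2983. The 17 repair genes became 16, 6, 2, 0 and 0, and the 6 falls 7, 0, 0, 0 and 0, without oil/acetone replicates 1, 2 and 3 and water replicates 1 and 2.

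The respiratory chain rose in many genes, by smaller amounts. Of 39 tested subunits and assembly genes of complex I, which passes electrons from NADH to ubiquinone, 19 rose and 0 fell (median 0.82). Of 39 for complexes II to V, 19 rose and 0 fell (median 0.68). In all 39 the oil/acetone libraries lay above the water libraries, against 29.3% of all tested genes. Ndufb7 was at 641, 824 and 673 normalised counts under oil/acetone and 319 and 231 under water (log2 change 1.38 ± 0.25 SE, adjusted p = 0.0151). Ndufa8 stood at 816, 940.4 and 809 against 426 and 434 (log2 change 0.99 ± 0.18 SE, adjusted p = 0.0161). Ndufv1, a catalytic subunit, stood at 1924, 2201 and 1970.1 against 1099.8 and 1161 (log2 change 0.84 ± 0.18 SE, adjusted p = 0.0225). Oil/acetone replicate 2 was the highest library in each of these genes. Cox5b, a subunit of cytochrome oxidase, had 2099.6, 2527 and 2055 against 1067 and 1130.1 (log2 change 1.01 ± 0.20 SE, adjusted p = 0.0174). Atp5o, of ATP synthase, had 1521, 1744 and 1386 against 683 and 792 (log2 change 1.07 ± 0.22 SE, adjusted p = 0.0196). The groups were apart in all 5 genes. Sdha, the flavoprotein of complex II, had 2107, 2249 and 2272 against 1696 and 1671 and was not called (adjusted p = 0.0761). Atp5a1, the alpha subunit of ATP synthase, had 15011, 15212 and 13631 against 11196 and 11200.3 and was not called (adjusted p = 0.0844). Neither overlapped. The proteins of the mitochondrial ribosome, which translates the subunits encoded in the organelle, rose in 27 of 77 genes and fell in 0 (median 0.66). Mrpl20 stood at 666, 900.0 and 722 against 393 and 369.8 (log2 change 0.99 ± 0.19 SE, adjusted p = 0.017). Mrps9 stood at 592, 631 and 577 against 340.5 and 379.5 (log2 change 0.74 ± 0.15 SE, adjusted p = 0.0205).

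These genes are short, and short genes were higher under oil/acetone as a whole. Relative to protein-coding genes of like exon length the medians were 0.51 for complex I, 0.41 for complexes II to V and 0.46 for the mitochondrial ribosome, with 37 of 39, 39 of 39 and 62 of 77 members above their length class. The counts were 19, 16 and 26 without oil/acetone replicate 1, 1, 0 and 0 without replicate 2, 1, 1 and 0 without replicate 3, and 0 in all 3 lists without either water library. Scaled to equal totals 31 genes of complexes II to V rose. The palindromic motif of NRF1, GCGCA followed at once by TGCGC, was in 5.71% of matched complex I promoters, 13.3% of those of complexes II to V and 4.41% of those of the mitochondrial ribosome, against 2.11% of tested genes. It was in 0 of 17 complex I members that rose and in 2 of 18 not called, in 2 of 16 and 2 of 14 for complexes II to V, and in 0 of 24 and 3 of 44 for the mitochondrial ribosome. Of the carbon pathways that feed the chain few members were called. In the tricarboxylic acid cycle 2 of 16 rose. Idh3b, of isocitrate dehydrogenase, was at 1844, 1852 and 1828 against 1240.1 and 1195 (log2 change 0.60 ± 0.15 SE, adjusted p = 0.0321). Suclg1, of succinyl-CoA ligase, was at 845, 924 and 739.7 against 609 and 538 (log2 change 0.54 ± 0.16 SE, adjusted p = 0.0452). Citrate synthase, Cs, at 6964, 7079.6 and 6106 against 5871 and 5669, was above without overlap and not called (adjusted p = 0.286). In glycolysis 1 of 19 rose and 2 fell. Enolase Eno1 was at 15271, 14370.3 and 12185 against 9935 and 8782 (log2 change 0.57 ± 0.16 SE, adjusted p = 0.045). Pfkp, which commits glucose to glycolysis, was at 8750.1, 4451 and 4853 against 14730.3 and 13225 (log2 change -1.28 ± 0.35 SE, adjusted p = 0.039). Pfkfb3, which makes its activator, stood at 2875, 1257 and 1096 against 4993 and 4017 (log2 change -1.50 ± 0.45 SE, adjusted p = 0.0499). Oil/acetone replicate 1 was the highest of its group in both of the genes that fell, and no group overlapped in the 3. Ldha overlapped, at 19418, 15667 and 12051 against 14239 and 13070.1. The 2 rises of the cycle were 1 and the 2 falls of glycolysis 5 without oil/acetone replicate 1, and all were 0 without any of the other 4 libraries.

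Of the genes of protein synthesis, few cytosolic ribosomal proteins were called, and ribosome assembly factors had falls. Of 77 cytosolic ribosomal proteins 4 rose (5.19%), a share below the background of 7.05%. Of the 77 changes 76 were above 0, with a median of 0.37, and relative to genes of like length the median was 0.09. Scaled to equal totals 16 rose, with oil/acetone replicate 1 left out 1, and with any of the other 4 libraries left out 0. Rpl41 was at 29792, 33183 and 23140.1 normalised counts under oil/acetone and 14594 and 15838 under water (log2 change 0.90 ± 0.25 SE, adjusted p = 0.0424). Rplp0 stood at 60049.6, 59998 and 46865 against 43102 and 46444, not called (adjusted p = 0.321). The factors that build ribosomes in the nucleolus fell in 10 of 69 genes and rose in 1 (median -0.28, and -0.41 relative to length). Nop58, a core protein of box C/D particles, had 1998, 1379.6 and 1514 against 2809 and 2921 (log2 change -0.83 ± 0.20 SE, adjusted p = 0.03). Utp4, of the small subunit processome, had 874, 490.4 and 580.3 against 1521 and 1294 (log2 change -1.16 ± 0.31 SE, adjusted p = 0.0393). The E-box CACGTG was in 20.7% of matched promoters of this list against 11.3% of tested genes. Its share was alike in the members that fell (2 of 10) and in those not called (10 of 47). Myc, a factor known to bind this motif and named after its values were seen, had 1108, 1189 and 1054 against 1661 and 1631 (log2 change -0.56 ± 0.16 SE, adjusted p = 0.0477). A link between Myc and the falls of ribosome assembly factors was not tested. Aminoacyl-tRNA synthetases rose in 3 of 20 genes. Vars, for valine, had 3589.7, 3001 and 3349 against 2053 and 2030.3 (log2 change 0.69 ± 0.13 SE, adjusted p = 0.016). The 3 synthetases became 4, 1, 0, 0 and 0 without oil/acetone replicates 1, 2 and 3 and water replicates 1 and 2. The 10 falls in ribosome biogenesis were 18 without oil/acetone replicate 1 and 0 without any of the other 4 libraries. Scaled to equal totals they were 6, with 4 rises.

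Protein quality control changed in few genes. Of 34 proteasome genes 3 rose and 0 fell (median 0.24), and 31 of the 34 changes were above 0. The catalytic subunit Psmb5 was at 1733, 2245 and 1648 normalised counts under oil/acetone and 957 and 1051 under water (log2 change 0.89 ± 0.19 SE, adjusted p = 0.0222). Of 28 chaperones 1 rose and 2 fell. Hsp90aa1, the inducible cytosolic HSP90, was at 8988, 8894 and 8489 against 19770.0 and 16474 (log2 change -1.04 ± 0.20 SE, adjusted p = 0.0177). Hspb1, a small heat shock protein abundant in suprabasal cells, stood at 19437, 27899.8 and 17213 against 42018 and 38973 (log2 change -0.94 ± 0.22 SE, adjusted p = 0.0259). Hsp90ab1, the constitutive form, stood at 41649, 44900.0 and 40414 against 33915 and 33886, not called (adjusted p = 0.189). The unfolded protein response had 0 rises and 2 falls among 23, of which Ern1, the sensor IRE1, was at 1172, 913 and 977 against 1836 and 1523 (log2 change -0.72 ± 0.21 SE, adjusted p = 0.0473). Targets of ATF4 and the serine pathway split into 4 rises and 3 falls of 22. Phgdh, the first enzyme of serine synthesis, had 4398, 3125 and 3066 against 1724 and 1779 (log2 change 0.99 ± 0.19 SE, adjusted p = 0.0168). Psph, its last, had 726, 1095 and 898 against 368 and 403 (log2 change 1.21 ± 0.28 SE, adjusted p = 0.0269). Sesn2, a stress-induced brake on mTORC1, had 1547, 1503 and 937 against 3681 and 3718 (log2 change -1.51 ± 0.32 SE, adjusted p = 0.0215). Atf4 itself was at 5541, 5975 and 4283 against 7575 and 8461 (log2 change -0.62 ± 0.18 SE, adjusted p = 0.0496). Without oil/acetone replicates 1, 2 and 3 the proteasome rises were 4, 0 and 0, the chaperone falls 2, 1 and 0, the falls of the unfolded protein response 2, 0 and 0 and the rises among ATF4 targets 4, 1 and 1. Without either water library 0 genes of these 4 lists were called, and scaled to equal totals 9 proteasome genes rose.

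Interferon-stimulated genes rose without a fall: 19 of 51 were called higher and 0 lower, with a median of 1.00 (0.88 relative to length). Oas1a, which makes 2-5A from double-stranded RNA, was at 289.7, 290.1 and 112 normalised counts under oil/acetone and 29.1 and 18.2 under water (log2 change 3.14 ± 0.57 SE, adjusted p = 0.0157). Mx1, an antiviral GTPase, had 182, 255 and 84.0 against 14.1 and 14.6 (log2 change 3.37 ± 0.58 SE, adjusted p = 0.0141). Oas1g had 85.9, 118 and 34.9 against 7.94 and 3.65 (log2 change 3.48 ± 0.70 SE, adjusted p = 0.019). The groups did not overlap, yet oil/acetone replicate 3 was the lowest of its group in all 3 genes, 2.58-fold, 3.04-fold and 3.37-fold below the highest in Oas1a, Mx1 and Oas1g. Isg15, a ubiquitin-like protein, was at 625, 631 and 216 against 214 and 179, with replicate 3 just above the water libraries, and was not called (adjusted p = 0.208). Irf7, a factor that amplifies interferon, was at 442, 451 and 201 against 201 and 139.9, overlapped and was not called (adjusted p = 0.151). Class I antigen presentation did not follow as a group, with 2 rises and 1 fall of 21. Psme2, an activator of the immunoproteasome, had 2864, 2902 and 2279.6 against 1614 and 1516 (log2 change 0.77 ± 0.16 SE, adjusted p = 0.022). Nlrc5, the transactivator of class I genes, was at 3482, 2925 and 3074 against 6168 and 6135 (log2 change -0.96 ± 0.17 SE, adjusted p = 0.0149). B2m, the light chain of class I molecules, overlapped at 25604, 25368 and 23708 against 24702 and 26323. The 19 rises were 12, 3 and 5 without oil/acetone replicate 1, 2 and 3, and 0 without either water library. With libraries scaled to equal totals they were 29. The class I calls were 2 rises and 1 fall, 1 fall, and 1 rise without oil/acetone replicate 1, 2 and 3, and 0 without either water library. Markers of macrophages (6 of 13 higher) and endothelium (6 of 17 higher) moved with these genes, and of 28 epidermal T cell markers 0 were called in this fit. Their part in the result was not tested.

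The interferon response element, GAAA followed after any 2 bases by GAAA, on either strand, was in the promoters of 19 of 38 matched interferon-stimulated genes, against 3.67% of tested genes and 3.99% of all genes in the table. It was in 5 of 10 matched members that rose and in 14 of 28 not called. Oas1a (chr5:120907526-120907685, minus), Oas1g (chr5:120887614-120887773, minus) and Gbp7 (chr3:142530176-142530335, plus, chosen after its values were seen), the called members with the lowest adjusted p that hold a match in the 160 bases before the start, are printed with the match in capitals to show its distance to the start.
Oas1a: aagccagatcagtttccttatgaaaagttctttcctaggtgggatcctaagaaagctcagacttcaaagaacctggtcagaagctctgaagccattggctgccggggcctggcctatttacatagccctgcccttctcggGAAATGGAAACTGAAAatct
Oas1g: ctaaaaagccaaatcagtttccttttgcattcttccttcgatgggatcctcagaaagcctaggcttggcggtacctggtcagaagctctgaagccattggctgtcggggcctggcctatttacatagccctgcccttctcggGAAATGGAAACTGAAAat
Gbp7: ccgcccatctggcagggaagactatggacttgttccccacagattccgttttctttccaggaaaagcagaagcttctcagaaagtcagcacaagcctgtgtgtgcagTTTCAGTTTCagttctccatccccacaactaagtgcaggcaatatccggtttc
The capitals of Oas1a and Oas1g spell the same 16 bases, which hold 2 overlapping matches, and end 4 and 2 bases before it. These genes are near-identical copies, so their reads may be shared.

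Genes of inflammatory signalling moved in both directions. Of 24 IL-1 and IL-36 family genes 4 rose and 3 fell. The IL-36 cytokine Il1f6 was at 64.2, 266 and 47.2 normalised counts under oil/acetone and 2.65 and 2.43 under water (log2 change 4.74 ± 0.72 SE, adjusted p = 0.0112). Il1f8, another, was at 132, 370.1 and 147 against 19.4 and 2.43 (log2 change 4.54 ± 0.81 SE, adjusted p = 0.0151). The water values of Il1f6, and that of Il1f8 in replicate 2, are only a few reads. The size of these folds therefore depends on the 1 added before the logarithm. Il1f9, the IL-36 cytokine with the most reads, was at 681, 1185 and 510.5 against 131 and 123 (log2 change 2.54 ± 0.47 SE, adjusted p = 0.016). The rises were these 3 and their receptor antagonist. This antagonist, Il1f5, was at 802, 3004 and 958 against 281 and 231 (log2 change 2.37 ± 0.53 SE, adjusted p = 0.0238). Oil/acetone replicate 2 was highest in all 4 genes. The falls were in regulators and receptors. Tollip, an inhibitor of receptor signalling, stood at 5312, 4519 and 3773 against 8391 and 8390.2 (log2 change -0.90 ± 0.16 SE, adjusted p = 0.015). The decoy receptor Il1r2 stood at 1648, 1128 and 849 against 2343 and 2204 (log2 change -0.96 ± 0.23 SE, adjusted p = 0.0284). The signalling receptor Il1r1 stood at 1198, 745 and 894 against 1781 and 1523 (log2 change -0.83 ± 0.22 SE, adjusted p = 0.0362). Il1b, the classical cytokine of the family, overlapped at 209, 245 and 123 against 256 and 159. Without oil/acetone replicates 1, 2 and 3 the rises were 4, 4 and 3 and the falls 3, 1 and 1, and without either water library both were 0.

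In the NF-kB list, which joins the pathway's subunits to the feedback genes it induces, 0 rose and 7 of 32 fell (median -0.55). In 24 members the oil/acetone libraries lay below the water libraries without overlap, as in 29.3% of all tested genes. Nfkbie, an inhibitor induced by the pathway, was at 523, 304 and 299 normalised counts under oil/acetone and 1637 and 1342 under water (log2 change -2.03 ± 0.49 SE, adjusted p = 0.0303). The subunit Rel stood at 4343, 2576 and 2314 against 6009 and 5847 (log2 change -1.002 ± 0.27 SE, adjusted p = 0.0395). The subunit Relb stood at 966, 773 and 769.9 against 1409 and 1322 (log2 change -0.71 ± 0.19 SE, adjusted p = 0.037). The ligase Traf6 stood at 785, 686 and 596 against 1236 and 1235 (log2 change -0.85 ± 0.19 SE, adjusted p = 0.023). Water libraries were above all oil/acetone libraries in these 4 genes. Rela, the main activating subunit, was at 3181, 2304 and 1741 against 4869 and 3858 and short of the threshold (adjusted p = 0.0557). Nfkbia, the gene of the inhibitor IkB-alpha, overlapped at 22296, 15354 and 11010.1 against 20627 and 21219. The 7 falls were 12, 1, 0, 0 and 0 without oil/acetone replicates 1, 2 and 3 and water replicates 1 and 2. Among 35 chemokines and cytokines 1 rose and 2 fell. Ccl22, a ligand of CCR4, had 416, 525 and 696 against 79.4 and 56.0 (log2 change 2.98 ± 0.60 SE, adjusted p = 0.0191). Cxcl14, a chemokine that resting epidermis makes in large amounts, had 2493, 2217 and 2546 against 10039.8 and 9536 (log2 change -2.02 ± 0.13 SE, adjusted p = 0.000142), with 2217 as the lowest and 2546 as the highest oil/acetone value, and kept its call in all 5 fits with a mutant library left out. This list had 1 rise without oil/acetone replicate 1, 0 rises without any of the other 4 libraries, and 1 fall in all 5 of these fits. Of 25 alarmin and antimicrobial genes 6 rose, and 0 fell. Chil1, a chitinase-like protein, had 311, 1115 and 865 against 30.9 and 20.7 (log2 change 4.67 ± 0.69 SE, adjusted p = 0.0108). Defb14, a beta-defensin, stood at 67.3, 61.1 and 29.2 against 11.5 and 4.87 (log2 change 2.56 ± 0.63 SE, adjusted p = 0.0304). S100a8, the alarmin subunit, was at 34.1, 619 and 142 against 5.29 and 4.87: all oil/acetone libraries lay above, with an 18.1-fold range, and it was not called (adjusted p = 0.0608). The 6 rises were 6, 1 and 1 without oil/acetone replicate 1, 2 and 3, and 0 without either water library.

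Other gasdermins, and the caspases and inflammasome genes known to act with them, rose in part. Of 26 such genes tested 8 rose and 0 fell (median 0.73). Gsdmc, a gasdermin of epithelia, was at 465, 1989 and 903 normalised counts under oil/acetone and 189 and 212 under water (log2 change 2.23 ± 0.60 SE, adjusted p = 0.0386). Its close copy Gsdmc2 was at 82.8, 134 and 75.5 against 20.3 and 21.9 (log2 change 2.11 ± 0.45 SE, adjusted p = 0.0221). Aim2, a sensor of cytosolic DNA, had 256, 186 and 175 against 62.6 and 90.02 (log2 change 1.42 ± 0.27 SE, adjusted p = 0.0161). Mlkl, the pore protein of necroptosis, had 86.9, 84.4 and 63.2 against 35.3 and 12.2 (log2 change 1.84 ± 0.47 SE, adjusted p = 0.0345). Oil/acetone replicate 2 was the highest library for both Gsdmc genes, and replicate 1 for Aim2 and Mlkl. Gsdmd, the gasdermin of inflammasomes, and Ninj1, which ruptures the membrane of dying cells, are named after their values were seen. Gsdmd had 68.3, 117 and 92.5 against 36.2 and 29.2 (log2 change 1.45 ± 0.40 SE, adjusted p = 0.0415). Ninj1 had 559.8, 575 and 466 against 377 and 325 (log2 change 0.60 ± 0.17 SE, adjusted p = 0.0467). Gsdma stood above its water values in all 3 oil/acetone libraries and was not called (adjusted p = 0.0745). The 8 rises were 7, 1 and 1 without oil/acetone replicate 1, 2 and 3 and 0 without either water library.

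**Figure D2:**
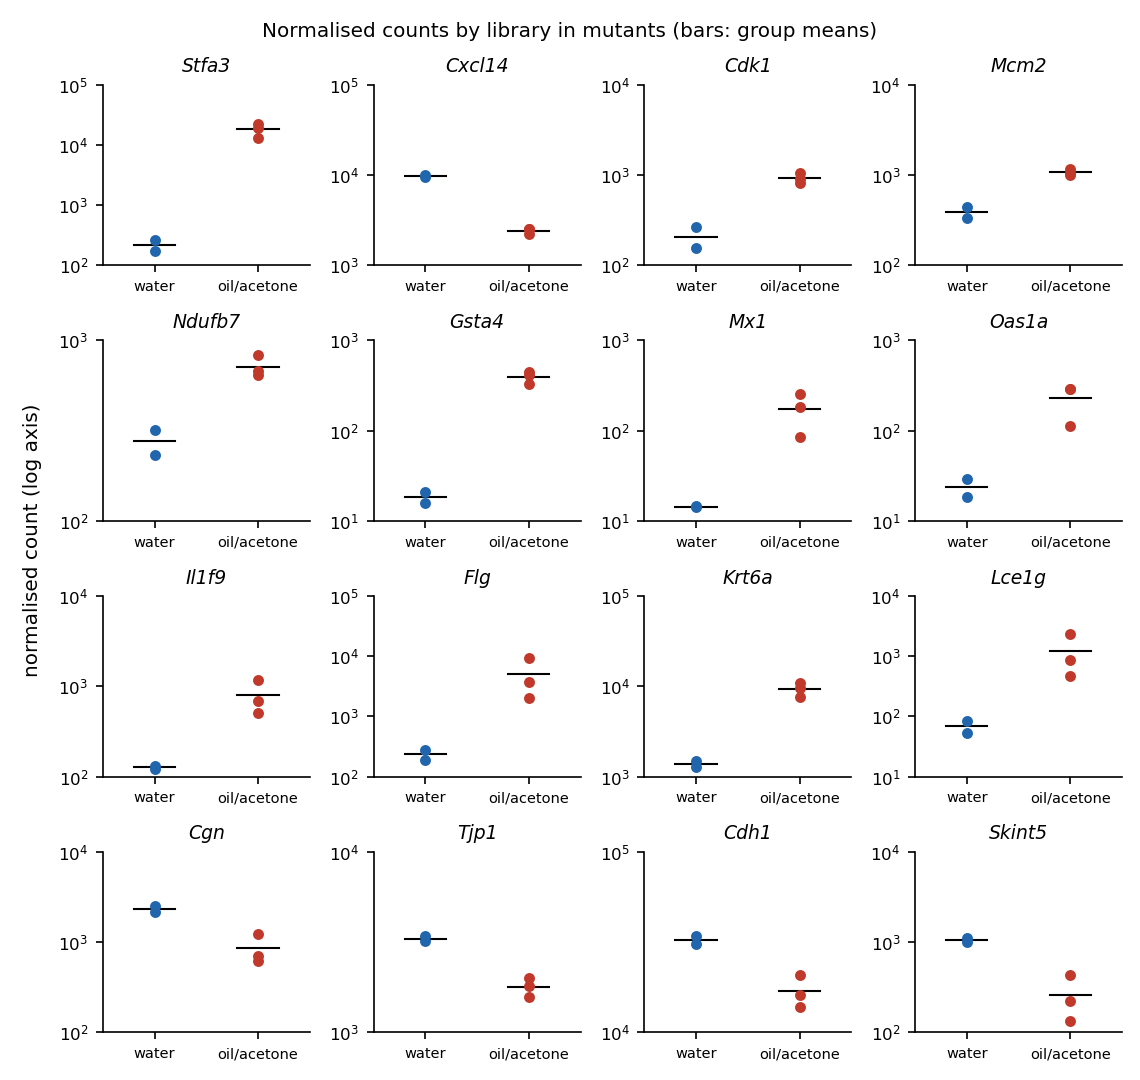
Normalised counts (y axis, log scale) of 16 genes in the 2 water (blue) and 3 oil/acetone (red) libraries of mutants, with a bar at each group's mean. The groups are apart in all 16 genes, which holds for all 2152 called genes. The oil/acetone points are tight for Cxcl14 (2217 to 2546) and wide for Flg (1989 to 9497).

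Genes of the cornified envelope had the largest median change of the keratinocyte lists. In the late cornified envelope cluster 11 of 19 rose and 0 fell (median 2.26, and 1.82 relative to length). Lce1g was at 2362, 870.4 and 476 normalised counts under oil/acetone and 85.6 and 53.5 under water (log2 change 3.85 ± 0.59 SE, adjusted p = 0.0112). Lce1f stood at 2286, 1462 and 611 against 246 and 156 (log2 change 2.69 ± 0.51 SE, adjusted p = 0.0168). Lce3d was at 21.7, 41.3 and 23.6 against 0.882 and 1.22, which is 1 read in each water library, so no fold is given. Oil/acetone replicate 1 was highest for both Lce1 genes and replicate 2 for Lce3d. Of the small proline-rich proteins and S100-fused envelope proteins 9 of 27 rose and 0 fell (median 1.99). Filaggrin, Flg, which bundles keratin and is broken down into moisturising factor, was at 3735, 9497 and 1989 against 281 and 191 (log2 change 4.15 ± 0.58 SE, adjusted p = 0.00883). Hornerin, Hrnr, stood at 999, 4398 and 772 against 148 and 147 (log2 change 3.34 ± 0.64 SE, adjusted p = 0.0171). Repetin, Rptn, stood at 289.7, 1201 and 328 against 72.3 and 53.5 (log2 change 2.94 ± 0.70 SE, adjusted p = 0.0289). Sprr1b stood at 5381, 8596 and 3656 against 905 and 1536 (log2 change 2.23 ± 0.35 SE, adjusted p = 0.0114). Oil/acetone replicate 3 was the lowest of its group for Flg, Hrnr and Sprr1b, at 4.77-fold, 5.70-fold and 2.35-fold below replicate 2. Loricrin, Lor, at 28913, 43559 and 11459 against 9977 and 6946, was above without overlap and missed the threshold (adjusted p = 0.0555). Involucrin, Ivl, overlapped at 2467, 5007 and 1565 against 4517 and 3288. The 11 and 9 rises were 11 and 9, 3 and 3, and 9 and 5 without oil/acetone replicate 1, 2 and 3, and 0 without either water library. Lce and Sprr2 genes are close copies in clusters, so reads may be shared among them.

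A loose pattern for AP-1, TGANTCA with any base at N, was searched on both strands. It was in 15 of 23 matched promoters of the small proline-rich and S100-fused list (65.2%), against 6.91% of tested genes. The share was 66.7% in the members that rose and 64.3% in those not called. It was in 0 of 18 matched late cornified envelope promoters, though both lists lie in the same gene cluster on chromosome 3. The stretches of Flg (chr3:93273386-93273545, plus), Sprr1b (chr3:92438780-92438939, minus) and Rptn (chr3:93393539-93393698, plus) show the match in capitals.
Flg: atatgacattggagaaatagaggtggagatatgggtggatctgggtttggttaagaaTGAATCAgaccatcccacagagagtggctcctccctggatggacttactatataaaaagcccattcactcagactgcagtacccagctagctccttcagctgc
Sprr1b: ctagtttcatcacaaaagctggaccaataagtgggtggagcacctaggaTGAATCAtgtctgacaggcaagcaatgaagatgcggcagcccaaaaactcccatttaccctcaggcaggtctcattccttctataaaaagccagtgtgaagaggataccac
Rptn: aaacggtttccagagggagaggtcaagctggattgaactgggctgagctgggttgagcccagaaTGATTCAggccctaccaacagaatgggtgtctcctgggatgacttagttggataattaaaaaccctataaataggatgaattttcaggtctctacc
The match reads TGAATCA in Flg and Sprr1b and TGATTCA in Rptn. In Flg, Sprr1b and Rptn 96, 104 and 89 bases lie between the match and the start.

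In the list of envelope crosslinking and corneocyte genes, which joins enzymes to other proteins, 5 of 28 rose and 1 fell. Tgm3, a transglutaminase, was at 809, 1095 and 849 normalised counts under oil/acetone and 224 and 237 under water (log2 change 1.98 ± 0.29 SE, adjusted p = 0.0106). Casp14, the caspase that helps to cut filaggrin, stood at 1772, 4292 and 2193 against 524 and 617 (log2 change 2.17 ± 0.43 SE, adjusted p = 0.019). Tgm1, the transglutaminase of the cell periphery, overlapped at 1093, 2523 and 723 against 833 and 668. Periplakin, Ppl, which lines the early envelope, was at 11982, 9395 and 8402 against 19886 and 20952 (log2 change -1.06 ± 0.21 SE, adjusted p = 0.0196). The 5 rises were 5, 1, 2, 0 and 0 without oil/acetone replicates 1, 2 and 3 and water replicates 1 and 2. Among kallikreins and protease inhibitors 11 of 35 rose and 0 fell. The stefins, inhibitors of cysteine cathepsins, changed most: Stfa3 stood at 19246, 21669.9 and 13163 against 174 and 258 (log2 change 6.37 ± 0.39 SE, adjusted p = 0.000138). Stfa1 stood at 1547, 3119 and 1720.1 against 62.6 and 90.02 (log2 change 4.73 ± 0.63 SE, adjusted p = 0.00796). The stefin-like BC100530 stood at 13574, 25458 and 11141 against 59.1 and 124 (log2 change 7.50 ± 0.94 SE, adjusted p = 0.00775). The lowest oil/acetone library was 51.0-fold above the highest water library for Stfa3, which kept its call in all 5 fits with a mutant library left out. Stefin genes are close copies. The kallikreins that shed corneocytes and their inhibitor were not called. Klk5 was at 682, 2271 and 997 against 673 and 538 (adjusted p = 0.213). Klk7 was at 4117, 13849 and 7377 against 2373 and 1498 (adjusted p = 0.0836). Spink5, the inhibitor, was at 3899, 8484 and 3726 against 10633 and 9086 (adjusted p = 0.076). Both kallikreins lay above and Spink5 below the water libraries without overlap. The 11 rises were 13, 8, 9, 1 and 2 without oil/acetone replicates 1, 2 and 3 and water replicates 1 and 2.

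Keratins of the interfollicular layers moved unevenly, with 2 rises and 2 falls of 15. Krt1, the suprabasal partner of keratin 10, was at 111680.0, 236226 and 128422 normalised counts under oil/acetone and 33582 and 46745 under water (log2 change 1.92 ± 0.37 SE, adjusted p = 0.0168). Krt10 overlapped, at 133383, 259311 and 130776 against 148074 and 158638. Krt79, of follicle and sebaceous ducts, was at 35560.4, 99275 and 76069 against 19000.0 and 21848 (log2 change 1.66 ± 0.42 SE, adjusted p = 0.0334). Krt15, a keratin of basal and bulge cells, was at 41233, 36467 and 40048 against 67777 and 79928 (log2 change -0.91 ± 0.20 SE, adjusted p = 0.0221). Krt80 stood at 7270.4, 8407 and 6027 against 17902 and 19465 (log2 change -1.38 ± 0.21 SE, adjusted p = 0.0112). The 2 rises and 2 falls were 2 and 2, 1 and 1, and 1 and 1 without oil/acetone replicate 1, 2 and 3, and 0 without either water library. Of 5 wound keratins, which keratinocytes make when they are activated, 3 rose. Krt6a was at 7530.1, 10850.2 and 9483 against 1287 and 1506 (log2 change 2.72 ± 0.50 SE, adjusted p = 0.0159). Krt6b stood at 635, 8341 and 4085 against 6.17 and 15.8 (log2 change 7.99 ± 1.44 SE, adjusted p = 0.0152). Oil/acetone replicate 1 held 13.1-fold less Krt6b than replicate 2, and these 2 keratins are near copies that can share reads. Krt16 overlapped, at 28351, 51431 and 20784 against 37100.4 and 21362. Krt17 overlapped too, at 47321, 101330.0 and 62329 against 48110.4 and 37399. The 3 rises were 3, 2 and 0 without oil/acetone replicate 1, 2 and 3, and 0 without either water library. Krt79 and the Krt6 keratins are also made in the hair follicle, whose markers had a median change of 1.33, and their part was not tested.

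Of 43 genes of the NRF2 and glutathione list, which detoxify electrophiles, 12 rose and 2 fell (median 0.41, and 0.11 relative to length). Gsta4, a glutathione transferase for lipid aldehydes, was at 329, 412 and 443 normalised counts under oil/acetone and 15.9 and 20.7 under water (log2 change 4.36 ± 0.51 SE, adjusted p = 0.007). Mgst2 stood at 539, 611 and 431 against 143 and 122 (log2 change 1.98 ± 0.28 SE, adjusted p = 0.00883). Nqo1 stood at 252, 221 and 249.1 against 88.2 and 120.4 (log2 change 1.21 ± 0.31 SE, adjusted p = 0.0342). Nfe2l2, the gene for NRF2 itself, went the other way, stood at 2212, 1588 and 1537 against 3628 and 3744 (log2 change -1.07 ± 0.29 SE, adjusted p = 0.0381). The classical target Hmox1 overlapped, at 637, 601 and 323 against 445 and 412. The 12 rises were 11, 4 and 2 without oil/acetone replicate 1, 2 and 3, and 0 and 1 without water replicate 1 and 2. Of 25 retinoid and vitamin D genes 4 rose and 1 fell. The fatty acid and retinoid carrier Fabp5 had 9049, 27269 and 11935 against 2993 and 3417 (log2 change 2.16 ± 0.47 SE, adjusted p = 0.0229). Replicate 2 was its highest library, and the groups did not overlap. The 4 rises were 6 without oil/acetone replicate 1 and 0 without any of the other 4 libraries. Lipid synthesis, which refills the barrier, had few calls. In cholesterol synthesis 0 of 23 rose and 1 fell. In fatty acid synthesis 1 of 23 rose and 1 fell, and in the ceramide list 1 of 35 rose and 1 fell. Degs2, which hydroxylates ceramides, had 70.4, 201 and 119 against 11.5 and 18.2 (log2 change 2.95 ± 0.59 SE, adjusted p = 0.0186). Sptlc3, of the first step of ceramide synthesis, had 816, 1215 and 668 against 1820.5 and 2108 (log2 change -1.17 ± 0.24 SE, adjusted p = 0.0209). Without oil/acetone replicates 1, 2 and 3 the ceramide list had 1, 0 and 0 rises and 3, 1 and 0 falls, and without either water library 0 calls. In peroxisomes and fatty acid oxidation 4 of 31 rose and 1 fell, and the rises were 3 without oil/acetone replicate 1 and 0 without any of the other 4 libraries. Hadh, of fatty acid oxidation, had 2159.6, 2767 and 2475 against 1078 and 1298 (log2 change 1.05 ± 0.22 SE, adjusted p = 0.0211).

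Tight junction genes had the highest share of called falls of all 67 lists, which were chosen with earlier results of these data known. Of 30 tested 15 fell and 0 rose, and the median was -0.80 (-0.72 relative to length). Ocln, occludin, a membrane protein of the junction, was at 791, 673 and 481 normalised counts under oil/acetone and 1409 and 1446 under water (log2 change -1.17 ± 0.24 SE, adjusted p = 0.02). Cingulin, Cgn, a cytoplasmic linker, had 704, 1240.4 and 612 against 2500.5 and 2147 (log2 change -1.51 ± 0.29 SE, adjusted p = 0.0164). The scaffold Tjp1, known as ZO-1, had 2004, 1577 and 1796 against 3431 and 3187 (log2 change -0.89 ± 0.23 SE, adjusted p = 0.0339). Pard6b, of the polarity complexes that place the junction, had 960.3, 582 and 456 against 2226 and 2229 (log2 change -1.81 ± 0.35 SE, adjusted p = 0.0174). Mpp5, of the same complexes, had 791, 654 and 637 against 1317 and 1336 (log2 change -0.94 ± 0.16 SE, adjusted p = 0.0149). Cldn1, the claudin that the epidermal barrier depends on, had 9331, 9299.9 and 6582 against 14767 and 13268 (log2 change -0.75 ± 0.21 SE, adjusted p = 0.0441). Every water library lay above every oil/acetone library in these 6 genes, with the lowest oil/acetone value in replicate 3 in all but Tjp1. The 15 falls were 14, 4 and 1 without oil/acetone replicate 1, 2 and 3, and 0 without either water library. With libraries scaled to equal totals 13 fell.

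Other contacts fell in part. In the adherens junction and polarity list 8 of 31 fell and 1 rose (median -0.36). E-cadherin, Cdh1, was at 20759.9, 16016 and 13786 normalised counts under oil/acetone and 34293 and 30765 under water (log2 change -0.97 ± 0.23 SE, adjusted p = 0.0277). Cdh4 stood at 118, 63.8 and 54.7 against 677 and 696 (log2 change -3.19 ± 0.39 SE, adjusted p = 0.00729). Llgl2, a basolateral polarity protein, stood at 1564, 1811 and 1401 against 3268 and 3115 (log2 change -1.01 ± 0.15 SE, adjusted p = 0.0108). The giant cadherin Fat1 stood at 2143, 1423 and 2093 against 3769.7 and 3444 (log2 change -0.96 ± 0.19 SE, adjusted p = 0.0196). The rise was Vangl1, of planar polarity, at 1412, 1459 and 1641 against 699 and 605 (log2 change 1.21 ± 0.26 SE, adjusted p = 0.0221). Beta-catenin, Ctnnb1, overlapped at 9967, 9137 and 9917 against 9686 and 10092. Desmosomes had 2 falls, Ppl and Dsg2, and 1 rise, Dsc1, of 17. The desmoglein Dsg2 had 1374, 576 and 823 against 2682 and 1995 (log2 change -1.42 ± 0.33 SE, adjusted p = 0.0268). The desmocollin of the upper layers, Dsc1, had 3236, 8144 and 4538 against 1738 and 2088 (log2 change 1.37 ± 0.39 SE, adjusted p = 0.0436). Desmoplakin, Dsp, at 65382, 72867 and 67269 against 77771 and 80722, was below without overlap and not called (adjusted p = 0.416). Without oil/acetone replicate 1 the desmosome list had 4 falls and 1 rise, and without any of the other 4 libraries 0 calls. Of 28 genes of the hemidesmosome and basement membrane, which anchor the basal layer, 6 fell and 0 rose (median -0.72). On recovered reads edgeR called 2 of them lower and 0 higher, and DESeq2 11 lower and 1 higher. Dst, the plakin that ties keratin to the hemidesmosome, was at 24394, 9314 and 12317 against 35745 and 37231 (log2 change -1.37 ± 0.39 SE, adjusted p = 0.0452). Itga2, a collagen receptor, stood at 1169, 385 and 474 against 2971 and 1869.8 (log2 change -1.98 ± 0.51 SE, adjusted p = 0.035). Col4a2 stood at 282, 246 and 375 against 756 and 564 (log2 change -1.14 ± 0.24 SE, adjusted p = 0.0209). In Dst and Itga2 oil/acetone replicate 1 was 2.62-fold and 3.03-fold above replicate 2, yet below the water libraries. Itga6, the integrin of the hemidesmosome, was at 17339, 6982 and 9389 against 18571 and 18451 and not called (adjusted p = 0.0988). Col17a1, its transmembrane collagen, was at 64623, 30299 and 41656 against 74569.5 and 70144 and not called (adjusted p = 0.0975). Without oil/acetone replicates 1, 2 and 3 and either water library, the 8 falls were 12, 3, 2 and 0, and the 6 falls 13, 0, 1 and 0.

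Of 33 immediate early and AP-1 genes, which answer stimulation within minutes to hours, 7 fell and 0 rose (median -0.51). Fosl1, the Fos-related subunit of migrating keratinocytes, was at 903, 419 and 426 normalised counts under oil/acetone and 2233 and 2167 under water (log2 change -2.01 ± 0.43 SE, adjusted p = 0.0221). Mafk stood at 3989, 2530.2 and 2317 against 6853 and 7078 (log2 change -1.28 ± 0.26 SE, adjusted p = 0.0186). Maff stood at 1341, 1089.5 and 669 against 2198 and 2352 (log2 change -1.19 ± 0.30 SE, adjusted p = 0.0331). Zfp36l1, which destabilises short-lived messages, stood at 3904, 2751 and 2686 against 5185 and 5355 (log2 change -0.78 ± 0.21 SE, adjusted p = 0.039). The groups were apart in all 4 genes. Fos overlapped, at 15138, 21599 and 16895 against 15851 and 18058. Jun overlapped too, at 33854, 22818 and 18561 against 33759 and 35255. In the EGF receptor list 4 of 30 fell and 1 rose. Egfr itself was at 3850.4, 2351 and 2426 against 5631 and 4604 (log2 change -0.86 ± 0.25 SE, adjusted p = 0.0465). Its feedback inhibitor Spry1 stood at 769, 737 and 444 against 1522 and 1549.8 (log2 change -1.28 ± 0.23 SE, adjusted p = 0.0156). Etv4, a factor induced by this pathway, was at 1113, 781 and 872 against 251 and 255 (log2 change 1.84 ± 0.26 SE, adjusted p = 0.00883). The first 2 fell and Etv4 rose, each without overlap. Genes of wound migration gave 3 rises and 3 falls of 38. The protease Plau had 564, 953 and 727 against 311 and 389 (log2 change 1.07 ± 0.23 SE, adjusted p = 0.023). The integrin Itgav had 2522, 1496 and 1696 against 4206 and 3538 (log2 change -1.05 ± 0.30 SE, adjusted p = 0.0426). Without oil/acetone replicate 1 the 7 falls in the first list were 13, and without any of the other 4 libraries 0. The 4 falls of the EGF receptor list were 10, 1, 1, 0 and 0 without oil/acetone replicates 1, 2 and 3 and water replicates 1 and 2. The migration list had 14 falls and 3 rises without oil/acetone replicate 1 and 0 calls without any of the other 4 libraries. All libraries were taken on day 5.

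Developmental pathways changed in few members, mostly downwards. In the Notch pathway, which commits basal cells to the spinous layer, 4 of 27 fell and 0 rose. The ligand Dll1 was at 1092, 541 and 717 normalised counts under oil/acetone and 2005 and 2175 under water (log2 change -1.47 ± 0.29 SE, adjusted p = 0.0185). The receptor Notch1 was at 5802, 3533 and 4906 against 8465 and 9354 (log2 change -0.94 ± 0.23 SE, adjusted p = 0.0321). The target Hes1 overlapped at 901, 2688 and 1837 against 1620.2 and 1246. In the BMP and TGF-beta list 4 of 42 fell and 0 rose. Bmp2, a ligand, had 1114, 567 and 552 against 2313 and 2583 (log2 change -1.79 ± 0.39 SE, adjusted p = 0.0221). In the Wnt list 5 of 53 fell and 2 rose. The ligand Wnt7b was at 3594, 2038 and 2073 against 4978 and 4968 (log2 change -1.01 ± 0.24 SE, adjusted p = 0.0284). The secreted inhibitor Notum had 27.9, 44.0 and 70.8 against 5.29 and 8.52 (log2 change 2.55 ± 0.62 SE, adjusted p = 0.0305). Dkk2, another, had 26.9, 74.6 and 69.8 against 5.29 and 4.87 (log2 change 3.13 ± 0.65 SE, adjusted p = 0.0209). The shares that fell, 9.52% for BMP and 9.43% for Wnt, are near the background of 7.05%, and that of Notch was 14.8%. Without oil/acetone replicate 1 the falls were 5, 12 and 10 for Notch, BMP and Wnt, and without any of the other 4 libraries 0. Scaled to equal totals they were 2, 1 and 1. In the Hedgehog and cilium list 2 of 56 rose. The counts were 2 rises and 2 falls without oil/acetone replicate 1, and 0 without any of the other 4 libraries. Shh, a signal of the growing hair follicle, was at 11.4, 24.3 and 38.7 against 2.65 and 3.65, above without overlap and not called (adjusted p = 0.125).

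Of 42 transcription factors of stratification 5 fell and 3 rose. Trp63, which keeps the basal programme, was at 13648, 7542 and 8828 normalised counts under oil/acetone and 17828 and 20743 under water (log2 change -0.99 ± 0.24 SE, adjusted p = 0.0291). Grhl3, a factor of barrier formation, stood at 2542, 2848 and 1597 against 4853 and 4888 (log2 change -1.11 ± 0.26 SE, adjusted p = 0.0284). Ovol1 stood at 3371, 2443 and 1629 against 5495 and 5153 (log2 change -1.16 ± 0.28 SE, adjusted p = 0.0304). Oil/acetone replicate 1 was the highest of its group for Trp63 and Ovol1. Barx2, a homeobox factor, had 2461, 3679.9 and 3100.4 against 1036 and 1034 (log2 change 1.55 ± 0.36 SE, adjusted p = 0.0274). Klf4, a factor of the granular layer, overlapped at 21729, 18573 and 13687 against 15757 and 17177. The 5 falls were 10 and 2 without oil/acetone replicate 1 and 2, and 0 without any of the other 3 libraries. Of 22 clock genes 4 fell and 1 rose. In the positive arm Arntl was at 1098, 569 and 649 against 1564 and 1459.8 (log2 change -1.03 ± 0.27 SE, adjusted p = 0.037). Clock stood at 1386, 1005 and 1368 against 2055 and 2180.0 (log2 change -0.77 ± 0.20 SE, adjusted p = 0.0354). Npas2 stood at 139, 76.3 and 73.6 against 322 and 336 (log2 change -1.83 ± 0.32 SE, adjusted p = 0.0149). The repressor Cry1 was at 743, 357 and 397 against 2077 and 1786 (log2 change -2.02 ± 0.39 SE, adjusted p = 0.017). The 4 falls were 6 and 1 without oil/acetone replicate 1 and 2, and 0 without any of the other 3 libraries. The time of day of collection is not given in the labels. Dbp, an output that the positive arm drives, was above without overlap, at 481, 633 and 638 against 217 and 356, and was not called (adjusted p = 0.0797). Chromatin modifiers fell in 13 of 73 genes and rose in 2 (median -0.40, and -0.22 relative to length). The demethylase Kdm6b had 4573, 2916 and 2829 against 9975 and 8317 (log2 change -1.44 ± 0.36 SE, adjusted p = 0.0321). The remodeller Chd2 had 3238, 1979.6 and 2499 against 4929 and 5609 (log2 change -1.06 ± 0.25 SE, adjusted p = 0.028). The list's genes are the longest of all lists, with a median exon length of 10730.0 bases. The 13 falls were 18 without oil/acetone replicate 1 and 0 without any of the other 4 libraries.

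The Skint genes encode membrane proteins of keratinocytes, and the founding member selects the gamma-delta T cells that live in mouse epidermis. Of 11 tested 4 fell and 0 rose, with a median of -0.45. Skint7 was at 336, 516 and 451 normalised counts under oil/acetone and 1298 and 1071 under water (log2 change -1.46 ± 0.21 SE, adjusted p = 0.00883). Skint5 stood at 135, 429 and 223 against 995 and 1117 (log2 change -2.16 ± 0.42 SE, adjusted p = 0.0174). Skint6 stood at 358, 763 and 417 against 1237 and 1389 (log2 change -1.43 ± 0.30 SE, adjusted p = 0.0209). The water libraries lay above all oil/acetone libraries in these 3, and Skint3 overlapped at 924, 2659.6 and 1655 against 1632 and 1601. The 4 falls were 3, 4 and 1 without oil/acetone replicate 1, 2 and 3, and 0 without either water library. Of the 28 T cell markers 0 were called in either direction by limma over the 10 libraries or by edgeR, while limma with the spread from the 5 mutant libraries alone called 1 higher and 4 lower. In the fit over 10 libraries 1 had an unadjusted p under 0.05. Cd3e, of the T cell receptor complex, overlapped at 1241, 977 and 1809 against 1475 and 1321. Other markers, named after their values were seen, did not overlap. Trdc was below, at 1590, 1072 and 2122 against 2753 and 2546. Cd3g was above, at 1313, 1489 and 2340 against 1302 and 1203. Of the 28 markers 4 lay above and 10 below without overlap, against 29.3% of all tested genes in each direction. Skint genes are close copies that can share reads.

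Among the genes with the largest change in count were several of no list above. Of those that rose, Lgals7, a galectin of stratified epithelia, was at 83119, 103077 and 67779 normalised counts under oil/acetone and 41781 and 48234 under water (log2 change 0.89 ± 0.23 SE, adjusted p = 0.0335). Aqp3, the epidermal glycerol channel, stood at 18357, 14858 and 14409.6 against 6165 and 7388 (log2 change 1.23 ± 0.24 SE, adjusted p = 0.0185). Calm4, a calmodulin-like protein of skin, stood at 18784, 40945 and 17485 against 8204 and 9859.7 (log2 change 1.40 ± 0.35 SE, adjusted p = 0.0311). Of those that fell, Igfbp3, which binds insulin-like growth factors, was at 17264, 6618 and 7139 against 67927 and 51929 (log2 change -2.67 ± 0.50 SE, adjusted p = 0.0161). The nuclear RNA Malat1 stood at 20911, 12004 and 18219.6 against 43994 and 36998 (log2 change -1.28 ± 0.31 SE, adjusted p = 0.03). Ahnak, a very large scaffold protein, had 29268, 21595 and 27414 against 49231 and 47709 (log2 change -0.91 ± 0.23 SE, adjusted p = 0.0323). The syndecan Sdc4 had 25312, 18476 and 13887 against 40253 and 36498 (log2 change -1.04 ± 0.29 SE, adjusted p = 0.044). The groups of all 7 genes were apart, as the naming rule required.

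Markers of other cells moved with the treatment for some types. Haemoglobin and other red cell genes rose in 5 of 7 tested (summed level 15002, 28231 and 15465 under oil/acetone against 1818 and 3338 under water). Hbb-bs, a beta-globin with a near-identical copy, was at 7683, 14219 and 7832 normalised counts under oil/acetone and 629.7 and 1495 under water (log2 change 3.29 ± 0.54 SE, adjusted p = 0.0127). Endothelial markers rose in 6 of 17 (1373, 1831 and 1279 against 291 and 753). Pecam1, of endothelial junctions, was at 212, 234 and 165 against 36.2 and 97.3 (log2 change 1.74 ± 0.48 SE, adjusted p = 0.0405). Cdh5, the endothelial cadherin, was at 76.6, 85.3 and 52.8 against 0 and 37.7, and Kdr, a receptor of vascular growth, overlapped at 14.5, 19.8 and 17.0 against 16.8 and 15.8. Macrophage markers rose in 6 of 13 (2498, 4074 and 3013 against 1768 and 2064). Mrc1, the mannose receptor, was at 92.1, 45.8 and 41.5 against 7.06 and 6.08 (log2 change 2.92 ± 0.48 SE, adjusted p = 0.0127). Adgre1, which defines macrophages as F4/80, overlapped at 70.4, 85.3 and 89.6 against 75.9 and 86.4. Hair shaft and inner root sheath genes had 1 rise and 2 falls of 24 by the test but a median of 1.33. Krt71, of the inner root sheath, was at 36.2, 595 and 172 against 2.65 and 1.22, with oil/acetone replicate 2 far above. The red cell, endothelial and macrophage rises were 5, 5 and 3 without oil/acetone replicate 1, 4, 0 and 2 without replicate 2, 4, 0 and 2 without replicate 3, 0 without water replicate 1 and 2, 3 and 0 without water replicate 2. Sebaceous genes summed to 57874, 151067 and 107293 against 42939 and 48754, with 3 of 22 higher, which were 5 without oil/acetone replicate 1 and 0 without any of the other 4 libraries. T cell (0 of 28), melanocyte (0 of 12) and skeletal muscle (0 of 14) markers had no call in the fit over 10 libraries. With the spread from the 5 mutant libraries melanocyte markers had 2 higher and 1 lower, and their median change was 0.83, with 10 of 12 changes above 0. The Langerhans and dendritic list had 1 of 26 and fibroblasts 2 higher and 1 lower of 25. Neutrophil and mast cell genes had 1 of 7 lower and 0 higher by the test, but a median of 0.94 with 6 of 7 changes above 0, and 4 were called higher with the spread from the 5 mutant libraries. Merkel and neural genes had 1 higher and 2 lower of 6, adipocyte genes 1 of 7 higher and outer root sheath and bulge genes 6 higher and 4 lower of 35. In these bulk libraries fewer or more cells of a type and less or more RNA per cell cannot be told apart. The part of these cells in the lists above was not tested. Krt71 was 16.4-fold lower in oil/acetone replicate 1 than in replicate 2, and Cdk1 was 1.29-fold higher. These are single genes in 2 libraries, and a link between hair follicle content and cell division was not tested.

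**Figure D3:**
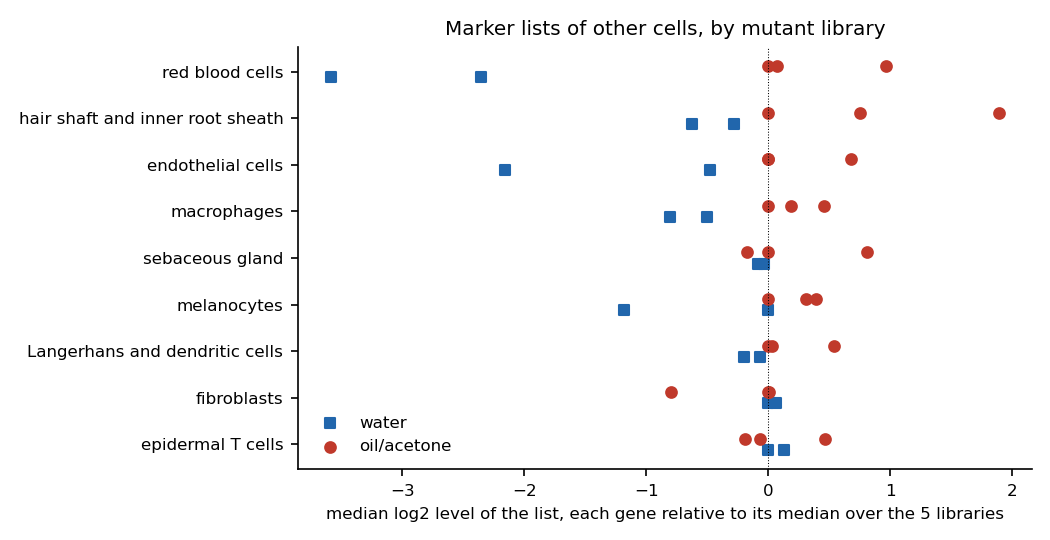
Median log2 level of marker lists (x axis, each gene relative to its median over the 5 mutant libraries) for 9 types of cell or structure (y axis), with 1 blue square per water library and 1 red point per oil/acetone library. Red cell, endothelial, macrophage, hair shaft and Langerhans lists separate the treatments, and T cell, fibroblast, melanocyte and sebaceous lists do not.

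The called genes differed in length. Protein-coding genes that rose had a median exon length of 3294 bases, those that fell 6236 and those not called 4402. In the shortest of 10 classes of equal size 15.4% rose and 1.96% fell, and in the longest 2.57% rose and 15.9% fell, while the median change went from 0.44 to -0.31. Within the lowest, middle and highest of 3 classes of expression the medians were 3283, 3364 and 3064.5 bases for rises and 4838.5, 5304.5 and 6777 for falls. Relative to genes of like length the medians of the mitosis (1.83), interferon (0.88), late cornified envelope (1.82), NF-kB (-0.61) and tight junction (-0.72) lists kept their sign and most of their size, while those of cytosolic ribosomal proteins (0.09), NRF2 (0.11) and chromatin modifiers (-0.22) were smaller than before. Differences in RNA integrity or fragment length between the libraries were not measured here, and their part was not tested.

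**Figure D4:**
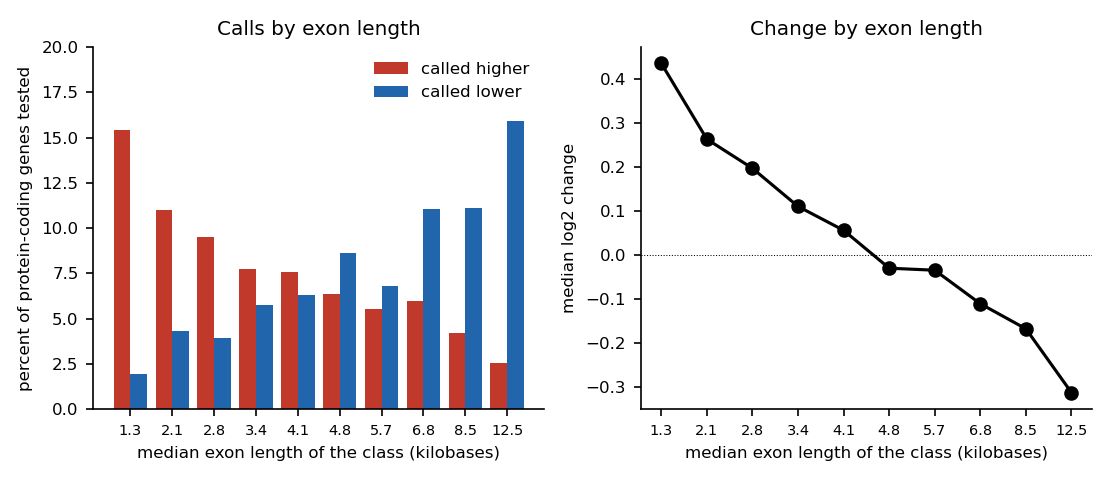
Share of protein-coding genes called higher (red) and lower (blue), left, and median log2 change, right, in 10 equal classes of exon length (x axes, median length of each class in kilobases). The share that rose goes from 15.4% in the shortest class to 2.57% in the longest, and the share that fell from 1.96% to 15.9%.

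Whether the response to oil/acetone differed between mutants and wild-type controls was tested on the difference of the 2 treatment effects. In 15122 genes with values in all 10 libraries 0 passed (0.0%), with a lowest adjusted p of 0.163, and 1806 had an unadjusted p under 0.05 (11.9%). For the same difference edgeR on reads recovered from the values called 0 and DESeq2 172. In controls 3 genes were called for oil/acetone against water (0.0198%), so the difference in counts between the genotypes, 2152 against 3, is not a test of a difference. Without control water replicate 1 and 2 the test of the difference called 45 and 1 genes. The list medians of both genotypes are given side by side. Late cornified envelope genes had 2.26 in mutants and 2.01 in controls, mitosis 1.83 and 0.79, DNA replication 1.00 and 0.29, wound keratins 1.99 and 0.18, interferon-stimulated genes 1.00 and -0.32, tight junctions -0.80 and -0.19. None of the named differences passed. For Oas1a the difference of the effects was 3.53 on the log2 scale (adjusted p = 0.348). For Krt6a it was 2.46 (adjusted p = 0.348), for Cdk1 1.25 (adjusted p = 0.367) and for Flg 0.74 (adjusted p = 0.696). Of the marker lists, hair shaft genes had 1.33 in mutants and -1.96 in controls, and endothelial genes 1.98 and -0.53.

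**Figure D5:**
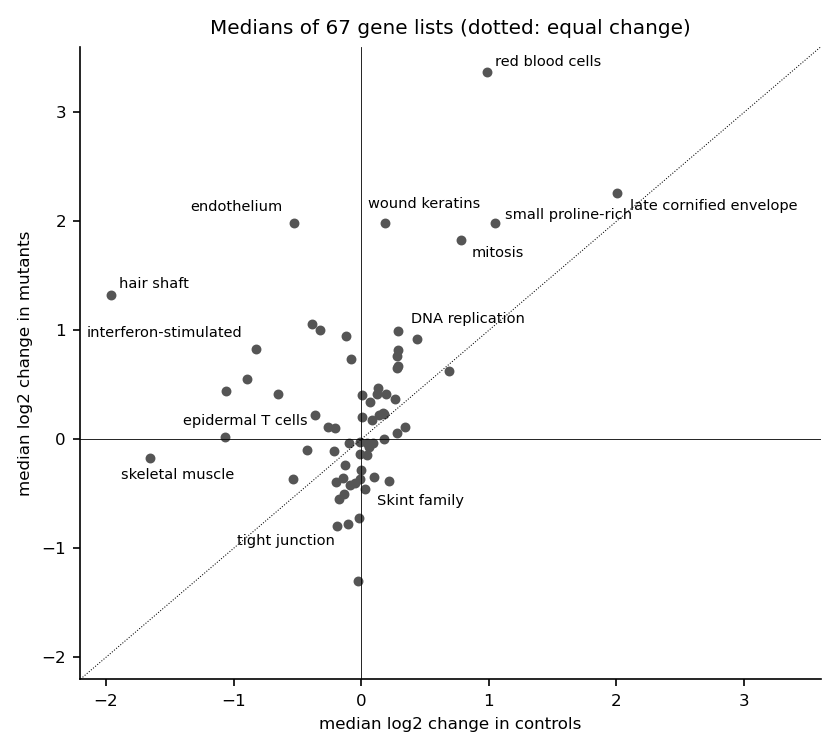
Median log2 change under oil/acetone against water of 67 gene lists in controls (x axis) and in mutants (y axis), 1 point per list, with a dotted line of equal change. Late cornified envelope genes lie near the line (2.01 and 2.26), and red cell, hair shaft and endothelial genes lie far above it.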

How the data were processed

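RNA of back skin epidermal keratinocytes was sequenced in 10 libraries. The submitters' processing notes name the build GRCm38 and the tools DESeq2 1.26.0, featureCounts 2.0.0 and Trimmomatic 0.38. Sources used here name no aligner, annotation release or strand setting, so overlapping antisense genes cannot be told apart. The deposited values are a normalised read count signal per gene: every value is a whole multiple of 1 step per library (100.0% whole within 0.1 read), which gives back 15914663 to 21812292 reads in the mutant libraries. Of the genes, 16557 are listed in all 5 mutant files and 1426 in the water files alone. 16021 are autosomal and 15259 had 10 or more in at least 2 mutant libraries. Values were divided by a median-of-ratios factor, and log2(value + 1) was fitted with limma 3.58.1 (R 4.3.3) as 4 group means over all 10 libraries. Fold changes are on this scale, which understates low genes, and a call is a Benjamini-Hochberg adjusted p under 0.05 over all tested genes. edgeR 4.0.16 and DESeq2 1.42.0 on the recovered reads were alternatives, beside other scalings, pseudocounts, filters and left-out libraries, and the fits were tested on simulated data. Genes were named by rule: per list, the called members with the lowest adjusted p and its listed key genes, and the genes with the largest change in count without overlap. The comparison, with the members that its labels set, and the lists were chosen with earlier results of these data known. Exon lengths came from GENCODE vM21 and promoters from RefSeq (GRCm38.p6). The number of libraries limits the precision more than their depth: 3 against 2 cannot reach an exact two-sided permutation p under 0.2.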

Additional observations from a re-analysis of the deposited data

Results flagged for a closer look

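The Y chromosome was left out of the comparison, and its genes carried a signal there. Ddx3y had a mean of 1604 normalised counts in the 3 mutant oil/acetone libraries, Eif2s3y 1250, Uty 579 and Kdm5d 417, and all 4 genes had 0 reads in both mutant water libraries. The wild-type libraries showed the same split, with Ddx3y at 1885 to 2338 under oil/acetone and 0 in both water libraries. The labels give no sex, and the treatment cannot be told apart from this difference in either genotype.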

How the results depend on the processing

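The counts of called genes moved most with 1 library left out. Leaving out 1 library in turn gave 2 to 3100 called genes, 1 to 1549 higher and 1 to 1672 lower, and the lowest counts were those without a mutant water library, which leave 1 library in that group. With the spread taken from the 5 mutant libraries alone limma called 3766 genes, 1912 higher and 1854 lower, and DESeq2 on recovered reads called 3544, 1836 higher and 1708 lower. For the difference between mutants and controls DESeq2 called 172 genes, and leaving out 1 library gave 0 to 45. edgeR called 2038 genes (140 of the 145 called genes named here), TMM factors gave 2197, and other pseudocounts, filters and gene sets between 2054 and 2216. A replicate block gave 2714 calls, 1326 higher and 1388 lower, of which 2013 were among the main calls. Same-numbered libraries correlated at 0.02 and 0.05 in their deviations from the group means. With 2 water libraries these deviations mirror each other, so the check cannot tell whether the numbers pair the libraries. Relative to genes of like exon length, an alternative chosen after seeing the data, the median of the epidermal T cell list turned from 0.02 to -0.24, and the cause was not tested. Scaled to equal totals the medians of 7 lists changed sign (autophagy, chaperones, fatty acid synthesis, glycolysis, nuclear pore, splicing and unfolded protein response), none of them over 0.12 in size.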
